A study of Mus musculus with 4 samples.

Results

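The G1 cyclins, their cyclin-dependent kinases (CDKs) and the CDK inhibitors p27 and p57 were examined in sorted retinal cells of postnatal day 2 mice. The 10 genes, Ccnd1, Ccnd2, Ccnd3, Ccne1, Ccne2, Cdk2, Cdk4, Cdk6, Cdkn1b and Cdkn1c, were chosen by gene symbol, and all 10 were found among the 22690 genes of the deposited table. RNA-seq had been run on retinal cells of C57BL/6 mice that flow cytometry had sorted for a 4N DNA content, found in cells between genome duplication and division. There were 2 libraries of GFP-positive cells labelled Casz1 cKO, a conditional knockout of the zinc finger transcription factor Casz1, and 2 libraries of GFP-negative cells labelled wild type. GFP sorting and genotype therefore differ together between the groups and cannot be told apart. The sources used here do not state which promoter or Cre line removed Casz1, or how many animals were pooled for a library. Each column name carries 1 of 2 tags, written A and B here, and each tag stands on 1 library of each group. They are called cKO-A, cKO-B, WT-A and WT-B, and the log2 ratios cKO-A over WT-A and cKO-B over WT-B are called those of the A pair and the B pair.

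D cyclins bind CDK4 or CDK6 early in G1 in response to growth signals, and the kinase begins to phosphorylate the retinoblastoma protein. E cyclins then bind CDK2, phosphorylation is completed, and E2F factors are released to switch on the genes of DNA replication. p27, the product of Cdkn1b, and p57, the product of the imprinted gene Cdkn1c, belong to the Cip/Kip family and restrain these kinases. In the retina cyclin D1 is the main D cyclin of progenitors, and p27 and p57 are known for driving cell cycle exit.

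Depth, as reads in genes, was 22326119 in cKO-A, 89473701 in cKO-B, 75832360 in WT-A and 83753377 in WT-B. Across the 14480 genes tested, cKO-A had a Pearson correlation of 0.902 to 0.918 with the other libraries, against 0.988 to 0.993 among the others. Casz1 itself had normalized read counts of 8687 in cKO-A and 10772 in cKO-B, against 13162 in WT-A and 11995 in WT-B. The log2 fold change of −0.38 (SE 0.19) did not pass (limma, adjusted p = 0.771). Counts over a whole gene include any exons that a deletion leaves in place, so they are no measure of recombination. Of the markers of the labelled cells, all 10 of the retinal progenitor list and all 10 of the proliferation list were detected in every library. The summed normalized counts of the progenitor list were 239464 and 240366 in cKO and 199465 and 216911 in wild type, and those of the proliferation list were 240145 and 231376 in cKO and 189169 and 214843 in wild type. For 3 of the 10 progenitor markers and 7 of the 10 proliferation markers both cKO libraries lay above both wild-type libraries. This held for 17.2% of all tested genes, and 1 marker of each list had a negative log2 fold change. Markers of other cells differed as well. All 12 microglial markers and all 12 rod and photoreceptor precursor markers were lower in both cKO libraries than in both wild-type libraries. So were 4 of 5 retinal astrocyte markers, where 22.3% of all tested genes were. The summed microglial level was 2313 and 11389 in cKO and 24516 and 24138 in wild type, with Aif1 at 0 in cKO-A. The summed rod level was 90882 and 110933 in cKO and 164779 and 147552 in wild type, with no marker at 0. The summed astrocyte level was 950 and 854 in cKO and 1933 and 1250.0 in wild type, with S100b at 0 in cKO-A. Of the endothelial markers 1 of the 5 tested was above and 1 below in both cKO libraries, with Tek, Pecam1 and Cdh5 at 0 in cKO-A and Tek under the level filter, and summed levels of 49390 and 39513 in cKO and 43475 and 38559 in wild type. Of 6 postmitotic neuron markers 1 was above and 1 below, and their summed levels were 49100 and 52912 in cKO and 52037 and 54035 in wild type. The part of these other cells in the results below was not tested. In RNA of sorted pools, fewer cells of a type and less RNA per cell cannot be told apart.

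The upstream sequence of Cdk4 is shown because Cdk4 was, with Ccnd1, a member whose cKO libraries both lay above the wild-type libraries, and that of Cdkn1b because it had the highest level per kb of exon among the member inhibitors. Sequences are from RefSeq on GRCm38.p6, 5′ to 3′ on the gene's strand, and capitals mark the E-box CACGTG, a motif bound by Myc-family factors among others. The Cdk4 stretch lies on the plus strand at chr10:127063285-127063533 and the Cdkn1b stretch on the plus strand at chr6:134920151-134920400.
Cdk4: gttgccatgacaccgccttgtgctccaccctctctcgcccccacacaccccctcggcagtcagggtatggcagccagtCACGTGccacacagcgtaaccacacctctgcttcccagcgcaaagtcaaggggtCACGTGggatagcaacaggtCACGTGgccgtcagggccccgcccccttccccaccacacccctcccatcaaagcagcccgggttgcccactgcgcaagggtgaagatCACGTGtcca
Cdkn1b: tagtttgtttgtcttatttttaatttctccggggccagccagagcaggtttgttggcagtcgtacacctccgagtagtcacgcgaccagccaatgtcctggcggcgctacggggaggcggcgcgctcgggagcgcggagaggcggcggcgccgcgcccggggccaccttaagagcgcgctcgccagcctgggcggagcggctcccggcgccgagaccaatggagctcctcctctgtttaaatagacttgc
The Cdk4 stretch holds 4 E-boxes and the Cdkn1b stretch holds none. The E-box reads the same on both strands, and it was chosen after the Cdk4 sequence had been read. In the 250 bases before the start, at least 1 E-box stood in 6.02% of 32851 RefSeq promoter windows, and at least 4 stood in 0.0213% of them, which is 7 windows. Of the 6 members with a window, Cdk4 and Cdk6 held an E-box. Ccnd1, Ccnd2, Ccne2 and Cdkn1c had no window, so their upstream sequences were not searched. E2F-type motifs were searched as TTTCGCGC, TTTGGCGC, TTTCCCGC and TTTGCCGC on both strands. The Cdk2 window alone among those of the members held a match, GCGGGAAA, and 1.86% of all windows held one. A match is a run of letters and not a site shown to be bound. Mycn, a Myc-family gene, had normalized counts of 7541 and 9652 in cKO and of 9763 and 9404 in wild type (log2 fold change −0.17, SE 0.20). Myc had 433 and 579 in cKO and 512 and 550 in wild type, so the groups overlapped for both genes.

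No G1 gene passed the test of the cKO against the wild-type libraries, and 4 of the 10 had groups that did not overlap. Ccnd1 and Cdk4 were higher in both cKO libraries than in both wild-type libraries, and Ccnd2 and Cdk6 were lower in both. The mean of Ccnd1 was 139.7% and that of Cdk4 126% of wild type, while that of Ccnd2 was 66.2% and that of Cdk6 90.8%. The remaining 6, Ccnd3, Ccne1, Ccne2, Cdk2, Cdkn1b and Cdkn1c, had overlapping groups. Over all tested genes the groups did not overlap for 39.5%, with both cKO libraries above for 17.2% and below for 22.3%, so the count of 4 in 10 members is near this background. The test was limma on log2(normalized count + 1), two-sided and moderated across genes, with Benjamini-Hochberg adjustment. It called 0% of the 14480 genes, 0 in number, at an adjusted p under 0.05, while 274 (1.89%) had an unadjusted p under 0.05 and 0 of these were members. The lowest adjusted p of any tested gene in this limma fit was 0.771. Where that value recurs, it is therefore shared by many genes and not particular to one. The reads recovered from the table gave 0 calls in edgeR (208 genes under 0.05 before adjustment) and 1 call in DESeq2 (0.00691% of genes), the rod nuclear receptor Nr2e3, which is no member. Members had a median log2 fold change of 0.01, against −0.03 over all tested genes. An adjusted p under 0.05 stood in the authors' deposited table for 51 genes (0.292% of 17477), of which 0 were members.

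**Figure D1:**
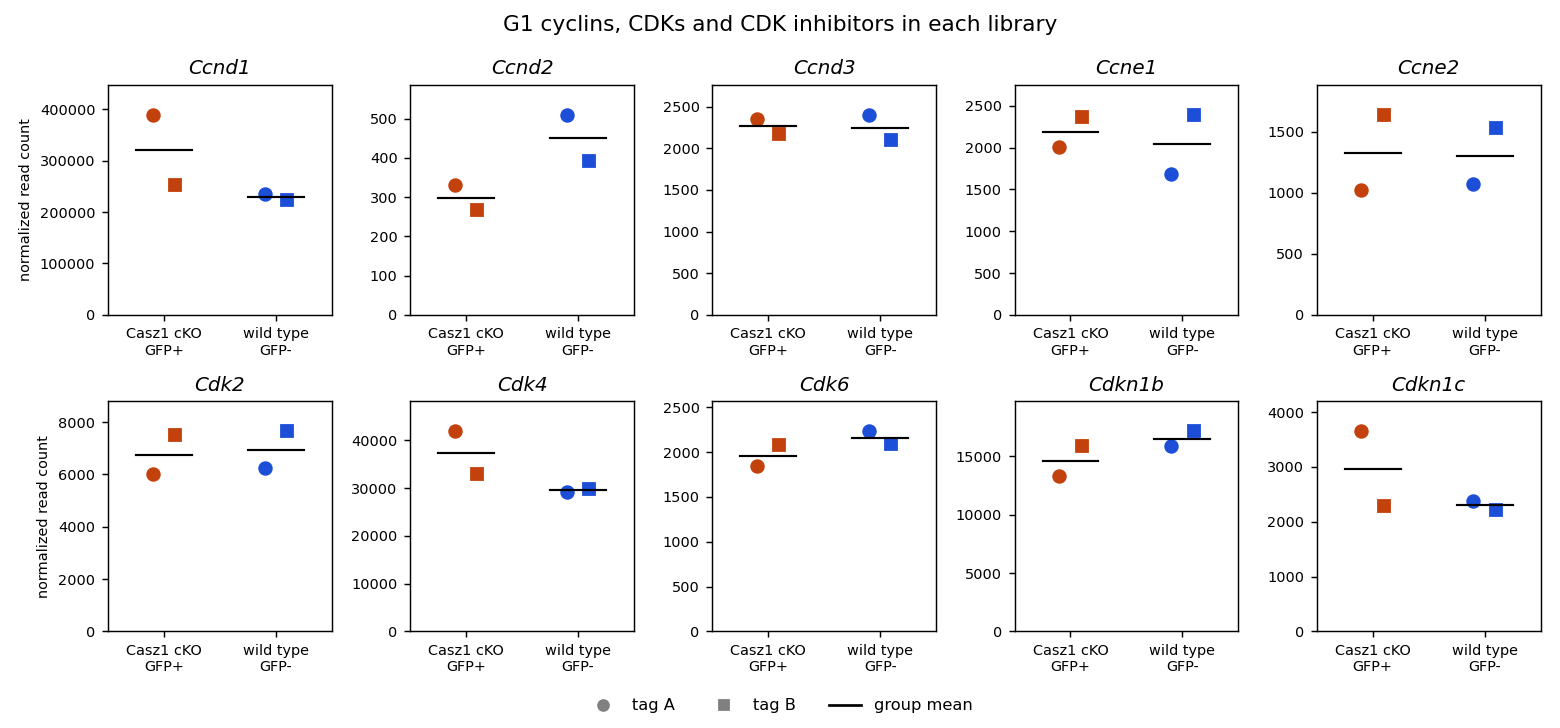
Normalized read counts (y axis, from 0, scaled for each gene) of the 10 G1 genes in each library, with Casz1 cKO GFP-positive left of wild type GFP-negative, circles for tag A, squares for tag B and a line at the group mean. Ccnd1 and Cdk4 lie higher in both cKO libraries and Ccnd2 and Cdk6 lower, while Ccne1, Ccne2 and Cdk2 separate by tag and not by group.

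Ccnd1, which encodes cyclin D1, dominated the D cyclins in every library. Ccnd1 (ENSMUSG00000070348, protein coding, minus strand of chromosome 7, 144929931 to 144939925 of GRCm38) had normalized counts of 388895 in cKO-A and 253407 in cKO-B, against 235937 in WT-A and 223698 in WT-B. Only cKO-A stood far from the rest, and cKO-B lay just above WT-A. The means were 321151 ± 95804 (SD, n = 2) in cKO and 229817 ± 8655 (SD, n = 2) in wild type. The log2 fold change was 0.45 (SE 0.29, limma adjusted p = 0.771), with 0.72 in the A pair and 0.18 in the B pair. Without cKO-A it was 0.14, and without cKO-B it was 0.76 (limma, adjusted p = 0.0906). This 1 gene took 0.623% of reads in genes in cKO-A (95% Wilson interval 0.620 to 0.627) and 0.428% in cKO-B (0.427 to 0.430). In wild type it took 0.410% in library A (0.408 to 0.411) and 0.387% in library B (0.386 to 0.388). Such intervals cover counting error only. Of the marker sums given above, the microglial, rod, proliferation, endothelial and postmitotic neuron sums were furthest from wild type in cKO-A, as Ccnd1 was. The astrocyte sum was furthest in cKO-B, and the progenitor sum was nearly equal in cKO-A and cKO-B (239464 and 240366). In wild type Ccnd1 was higher in WT-A, while the progenitor and proliferation sums were higher in WT-B. The part of these cells in the Ccnd1 difference was not tested. On the opposite strand Oraov1 shares 1100 exon bases with Ccnd1, and it had 1598 and 1678 normalized counts in cKO and 1952 and 1553 in wild type.

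Ccnd2, the cyclin D2 gene, was the member with the lowest log2 fold change, and it was lower in cKO in both pairs. Ccnd2 (ENSMUSG00000000184, minus strand of chromosome 6, 127125162 to 127152193) had 330 normalized counts in cKO-A and 267 in cKO-B, against 509 in WT-A and 393 in WT-B. Both cKO libraries lay below both wild-type libraries, and library A was the higher one in each group. These values rest on 118 and 404 reads in cKO and on 671 and 569 reads in wild type. Exact 95% Poisson intervals of the normalized count were 273 to 395 and 242 to 294 in cKO, and 472 to 549 and 361 to 426 in wild type. The intervals of cKO-A and WT-B overlap. The log2 ratio was −0.63 in the A pair and −0.55 in the B pair, and the log2 fold change was −0.59 (SE 0.31, limma adjusted p = 0.771). It was −0.74 without cKO-A and −0.44 without cKO-B. In the authors' deposited table Ccnd2 was the only member with an unadjusted p-value under 0.05, at 0.0170, where 2.85% of all genes in that table were under 0.05, and its adjusted p-value there was 1.00. The 12 microglial markers, also lower in cKO, had median log2 ratios of −4.06 in the A pair and −1.19 in the B pair, and their part in the Ccnd2 difference was not tested. Of the other lists, the 12 rod markers had −0.81 in the A pair and −0.59 in the B pair, and the 5 retinal astrocyte markers had −0.92 in the A pair and −0.55 in the B pair. These sizes are near those of Ccnd2, and their part was not tested either. Annotated antisense genes share 372 and 368 exon bases with Ccnd2, and the sources used here do not say whether counting used the strand.

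Ccnd3, the cyclin D3 gene, hardly differed between the groups. Ccnd3 (ENSMUSG00000034165, plus strand of chromosome 17, 47505051 to 47599691) had 2358 and 2168 normalized counts in cKO and 2402 and 2100 in wild type. Its log2 fold change was 0.01 (SE 0.19), and its A library was above its B library in both groups. The annotation also lists a pseudogene named Ccnd3-ps, and reads that both could give are uncertain. Exons of the opposite-strand gene Bysl share 361 bases with Ccnd3.

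Because the genes differ in length, the D cyclins were set beside each other per kb of merged exons. Ccnd1 made up 99.6% and 99.5% of the D cyclin total in cKO-A and cKO-B, against 99.3% and 99.4% in WT-A and WT-B. For Ccnd2 the share was 0.0423% and 0.0525% in cKO, against 0.107% and 0.0874% in wild type. Ccnd3 had 0.324% and 0.457% in cKO, against 0.543% and 0.501% in wild type. No share overlapped between the groups, with Ccnd1 above and Ccnd2 and Ccnd3 below in cKO. The shares of a library add up to the whole, so these are not 3 separate results. With Ccnd1 at 99.3% or more of the total, a higher Ccnd1 level lowers the other shares. The counts of Ccnd3 itself overlapped between the groups (log2 fold change 0.01). The exact two-sided permutation test over libraries gave p = 0.33 for each of the 3 shares, the smallest p that 2 against 2 libraries allow.

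Cdk4, the kinase partner of the D cyclins, had the same order of libraries as Ccnd1 among the cKO libraries. Cdk4 (ENSMUSG00000006728, plus strand of chromosome 10, 127063534 to 127067920) had 41866 and 32897 normalized counts in cKO, against 29276 and 29846 in wild type. The wild-type libraries lay close together, and cKO-A lay far above cKO-B. Means were 37381 ± 6342 (SD, n = 2) in cKO and 29561 ± 403 (SD, n = 2) in wild type. The log2 fold change was 0.33 (SE 0.20, limma adjusted p = 0.771), with 0.52 in the A pair and 0.14 in the B pair. It was 0.15 without cKO-A and 0.50 without cKO-B (limma, adjusted p = 0.0620). Tspan31, on the opposite strand, shares 641 exon bases with Cdk4 and had 8086 and 5059 normalized counts in cKO and 5140 and 5172 in wild type, so it too was highest in cKO-A. Without a stated strand setting its reads and those of Cdk4 in the shared bases cannot be told apart.

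Cdk6, the other kinase that D cyclins activate, was lower in both cKO libraries by a small amount. Cdk6 (ENSMUSG00000040274, plus strand of chromosome 5, 3341485 to 3531008) had 1841 and 2081 normalized counts in cKO, against 2231 and 2088 in wild type. cKO-B and WT-B differed by less than their counting intervals, which were 2009 to 2155 and 2014 to 2164. Its log2 fold change was −0.14 (SE 0.19), and it was −0.28 in the A pair and −0.0047 in the B pair. It was −0.0523 without cKO-A and −0.23 without cKO-B. Per kb of exon Cdk6 made up 1.01% and 1.45% of the Cdk4 and Cdk6 total in cKO and 1.67% ± 0.0990 (SD, n = 2) in wild type.

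The E cyclins and their kinase Cdk2 differed by tag more than by group. Ccne1, the cyclin E1 gene (ENSMUSG00000002068, minus strand of chromosome 7, 38097984 to 38107534), had 2012 and 2363 normalized counts in cKO-A and cKO-B, against 1690 and 2392 in WT-A and WT-B. Ccne2, the cyclin E2 gene (ENSMUSG00000028212, plus strand of chromosome 4, 11191351 to 11204779), had 1020 and 1638 in cKO, against 1073 and 1530 in wild type. Cdk2 (ENSMUSG00000025358, minus strand of chromosome 10, 128697939 to 128705031) had 6013 and 7502 in cKO, against 6246 and 7644 in wild type. For all 3 genes both B libraries lay above both A libraries. The log2 difference of library B minus library A was 0.23 in cKO and 0.50 in wild type for Ccne1. It was 0.68 in cKO and 0.51 in wild type for Ccne2, and 0.32 in cKO and 0.29 in wild type for Cdk2. Cdkn1b also had both B libraries above both A libraries, which makes 4 of 10 members, against 22.9% of all tested genes. The opposite order held for 2 of 10 members, Ccnd3 and Cdkn1c, against 22.6% of all tested genes. No label ties a tag to an experiment, so a tag is only a name shared by columns, and the difference between tags was not tested. E2f1, whose product drives E cyclin transcription, showed the same order, with 12244 and 14106 normalized counts in cKO and 12430 and 14447 in wild type. Not all E2F/DP genes shared it. Tfdp2, an E2F dimer partner, had the opposite order, with 12769 and 11552 in cKO and 12115.5 and 11753 in wild type. No link between these orders was tested.

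Between the groups, the E cyclins and Cdk2 had log2 fold changes of 0.12 (SE 0.24) for Ccne1, 0.01 (SE 0.32) for Ccne2 and −0.04 (SE 0.21) for Cdk2. Each is smaller than its standard error, and the adjusted p-values of limma lay between 0.864 and 0.989. The sign for Cdk2 turned to 0.05 when each library was rescaled to a common median. Of the E cyclin total per kb of exon, Ccne1 made up 72.1% and 65.4% in cKO and 67.4% and 67.3% in wild type, so the cKO libraries lay on either side of the wild-type ones (exact two-sided permutation p = 1.00). Ints8, on the opposite strand, shares 609 exon bases with Ccne2 and had 3166 and 3605 normalized counts in cKO and 3749 and 3916 in wild type. Pmel shares 34 exon bases with Cdk2 and had at most 109 normalized counts in any library.

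**Figure D2:**
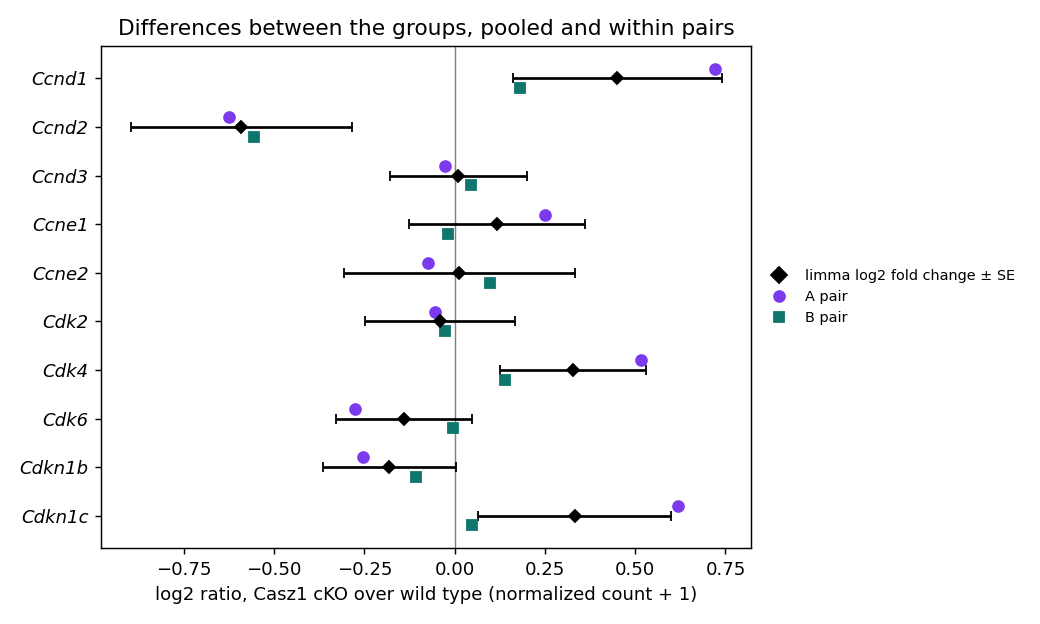
The log2 ratio of Casz1 cKO over wild type (x axis) for each G1 gene, with diamonds for the limma log2 fold change ± SE, circles for the ratio within the A pair and squares for that within the B pair. Ccnd2 lies lowest in both pairs (−0.63 and −0.55), while Ccnd1, Cdk4 and Cdkn1c have larger ratios in the A pair (0.72, 0.52 and 0.62) than in the B pair (0.18, 0.14 and 0.05).

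Of the inhibitors, Cdkn1b had the higher level per kb of exon, and its group means differed by less than the Cdkn1c means in relative size. Cdkn1b, the p27 gene (ENSMUSG00000003031, plus strand of chromosome 6, 134920401 to 134925513), had 13330 and 15902 normalized counts in cKO-A and cKO-B, against 15901 and 17133 in WT-A and WT-B. cKO-A was the lowest, and cKO-B and WT-A were nearly equal. The means were 14616 ± 1818 (SD, n = 2) in cKO and 16517 ± 871 (SD, n = 2) in wild type, with a log2 fold change of −0.18 (SE 0.18, limma adjusted p = 0.772). The A pair had a log2 ratio of −0.25 and the B pair −0.11. The log2 fold change was −0.0537 without cKO-A and −0.31 without cKO-B.

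Cdkn1c, the p57 gene, was set apart by 1 library. Cdkn1c (ENSMUSG00000037664, minus strand of chromosome 7, 143458339 to 143461050) had 3646 and 2293 normalized counts in cKO, against 2375 and 2219 in wild type. cKO-A was far above the rest, and cKO-B lay between the wild-type libraries. The log2 fold change was 0.33 (SE 0.27, limma adjusted p = 0.771), with 0.62 in the A pair and 0.05 in the B pair. It was −0.0018 without cKO-A. Without cKO-B it was 0.67 and was the only member to pass (limma, adjusted p = 0.00720), in a fit that called 39.8% of all genes and takes the lone cKO library to vary like the wild-type pair. Gm44732, an annotated antisense gene, shares 625 exon bases with Cdkn1c.

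Set beside each other per kb of exon, with Cdkn1a, the p21 gene, as the remaining family member, the Cip/Kip genes kept one order in every library. Cdkn1b made up 55.8% and 66.8% of the total in cKO-A and cKO-B, against 67.5% and 69.0% in WT-A and WT-B. The share of Cdkn1c was 34.1% and 21.5% in cKO, against 22.5% and 19.9% in wild type. Cdkn1a averaged 10.9% ± 1.14 in cKO and 10.5% ± 0.741 in wild type (SD, n = 2 each). Only for Cdkn1b did the shares not overlap between the groups, with cKO-B and WT-A next to each other (exact two-sided permutation p = 0.33, the smallest possible here). The difference in the Cdkn1b share, −6.94 points with all libraries, was −1.45 points without cKO-A and −12.4 points without cKO-B. For Cdkn1c the difference was 6.56 points (exact two-sided permutation p = 0.667), and it was 0.272 points without cKO-A and 12.9 points without cKO-B.

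**Figure D3:**
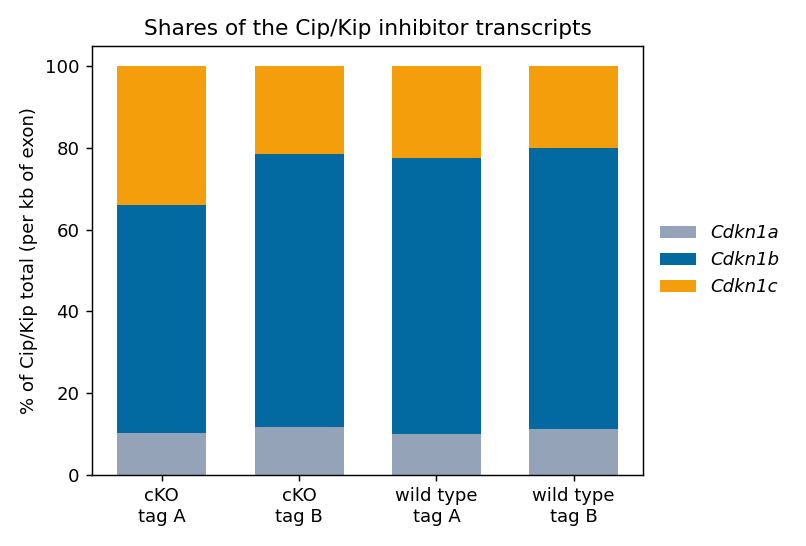
Share of each Cip/Kip inhibitor gene in the family total per kb of merged exons (y axis, percent) in each library, with the cKO libraries left of the wild-type ones. Cdkn1c takes 34.1% in cKO-A and 19.9% to 22.5% in the other libraries.

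Levels of the 10 genes spanned a wide range per kb of exon. All libraries were of cells sorted for a 4N DNA content, so neither these levels nor the shares above are those of cells in G1. Over all libraries Ccnd1 had the highest mean, 58502 normalized counts per kb, followed by Cdk4 with 10302, Cdkn1b with 3420, Cdkn1c with 1291, Cdk2 with 1102, Ccne1 with 794, Ccne2 with 376, Ccnd3 with 257, Cdk6 with 147 and Ccnd2 with 39.8. Each gene lay above the next in all 4 libraries without overlap of the ranges, except Cdkn1c and Cdk2. Cdkn1c was above Cdk2 in 2 of the 4 libraries, so these neighbours did not differ beyond their spread. Ccnd1 was 5.68 times Cdk4, its next neighbour, on this scale. Merged exons count every annotated isoform, from 2039 bases for Cdkn1c to 13989 for Cdk6, so the level of a gene whose cells use short isoforms is understated.

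**Figure D4:**
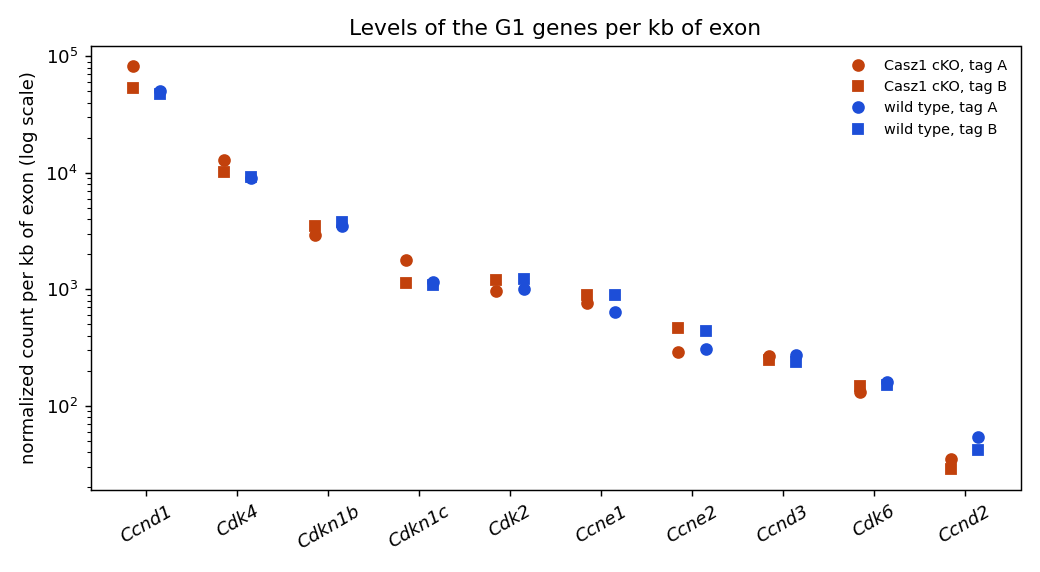
Normalized count per kb of merged exon (y axis, log scale) of each G1 gene, ordered by mean level, with cKO libraries left of wild-type ones and circles and squares for tags A and B. Ccnd1 stands highest (mean 58502) and Ccnd2 lowest (39.8), and the ranges of Cdkn1c and Cdk2 overlap.

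Genes that act with the G1 kinases were taken as 7 lists of 41 genes, of which 40 reached the level filter. Of these 0 passed in limma and 0 had an unadjusted p under 0.05. Log2 fold changes were positive for 26 and negative for 14, where 46.7% of all tested genes had a positive one. The median of the 40 was 0.14, with 0.18 in the A pair and 0.06 in the B pair, against −0.05 and −0.0030 over all tested genes. Ratios were positive for 26 of 40 genes in the A pair and for 30 of 40 in the B pair, against 46.8% and 49.3% of all tested genes. Mycl was under the filter.

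The cyclins of S, G2 and M phase and Cdk1, which follow the G1 kinases in the cycle, had positive log2 fold changes in 5 of 5 genes, at a median of 0.40, and 0 passed. The median was 0.73 in the A pair and 0.06 in the B pair. Ccna2, the cyclin A2 gene, had 36834 and 21693 normalized counts in cKO, against 22176 and 20741 in wild type, and only cKO-A stood out. Cdk1, the mitotic kinase, had 14605 and 10503 in cKO, against 8792 and 9359 in wild type, with both cKO libraries above (log2 fold change 0.45, SE 0.22, limma adjusted p = 0.771). Without cKO-A the log2 fold change was 0.0165 for Ccna2 and 0.21 for Cdk1.

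Of the other CDK inhibitors 4 of 5 had positive values and 0 passed. The INK4 genes Cdkn2c (p18) and Cdkn2d (p19), whose products bind CDK4 and CDK6, had log2 fold changes of 0.40 (SE 0.30) and 0.50 (SE 0.32). Cdkn2d had 3249 and 1756 normalized counts in cKO, against 1789 and 1602 in wild type, and only cKO-A was far from the rest. Without that library the log2 fold change was 0.0096 for Cdkn2c and 0.0528 for Cdkn2d. Cdkn2b was at 0 in cKO-A, where 3 reads are worth 8.38 normalized counts, and had 14.5 in cKO-B, against 22.0 and 13.8 in wild type. Cdkn1a had a log2 fold change of 0.03.

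Pocket proteins and E2F/DP factors had 7 positive and 6 negative values among 13 genes, at a median of 0.03, and 0 passed. Rb1, the retinoblastoma gene, had −0.20 and Tfdp2, an E2F dimer partner, had 0.03 (SE 0.17). E2f6, a repressive E2F, had the smallest p of this list, with 4823 and 3674 normalized counts in cKO, against 3340 and 3215 in wild type (log2 fold change 0.36, SE 0.21). Both cKO libraries lay above both wild-type libraries for E2f6, and without cKO-A the log2 fold change was 0.17.

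The list for the SCF ubiquitin ligases that turn over p27 and cyclin E had 4 positive and 3 negative values among 7 genes. The median was 0.27, and 0 passed. For 4 of the 7 both cKO libraries lay above both wild-type libraries, where 17.2% of all tested genes did. Both counts of 4 include Cks2 (log2 fold change 0.30), which is not the p27 cofactor named below. Skp1a, the adaptor subunit, had 21863 and 21209 normalized counts in cKO, against 15429 and 18506 in wild type (log2 fold change 0.35, SE 0.18). Cks1b, the cofactor with which SKP2 binds phosphorylated p27, had 5820 and 4567 in cKO, against 3697 and 4178 in wild type (log2 fold change 0.39, SE 0.20), and the groups did not overlap. Skp2 itself, the p27-binding subunit, had −0.05, Fbxw7, the cyclin E-binding subunit, had −0.14 and Cul1, the scaffold, had −0.01. Without cKO-A the log2 fold change was 0.33 for Skp1a and 0.22 for Cks1b, and without WT-A that of Skp1a was 0.22.

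Parts of the CDK-activating kinase had a median of 0.19 over 3 genes, with Cdk7, its catalytic subunit, at −0.11 and Mnat1, its assembly factor, at 0.34 (SE 0.22). Cdk7 had −0.18 in the A pair and −0.03 in the B pair, and Mnat1 had 0.60 in the A pair and 0.07 in the B pair. Without cKO-A the log2 fold change was −0.0258 for Cdk7 and 0.13 for Mnat1. The phosphatases and inhibitory kinases that act on CDKs had a median of 0.18 over 5 genes. Cdc25b and Cdc25c, phosphatases that activate CDKs, had 0.32 (SE 0.27) and 0.39 (SE 0.32), at 0.60 and 0.72 in the A pair and 0.03 and 0.06 in the B pair. Pkmyt1, a kinase that inhibits CDK1, had −0.04. No gene of these lists passed in limma with all 4 libraries. Without cKO-B the log2 fold change was 0.66 for Cdc25b and 0.83 for Cdc25c, and without cKO-A it was −0.0327 and −0.0455. Each of these fits rests on 1 cKO library.

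**Figure D5:**
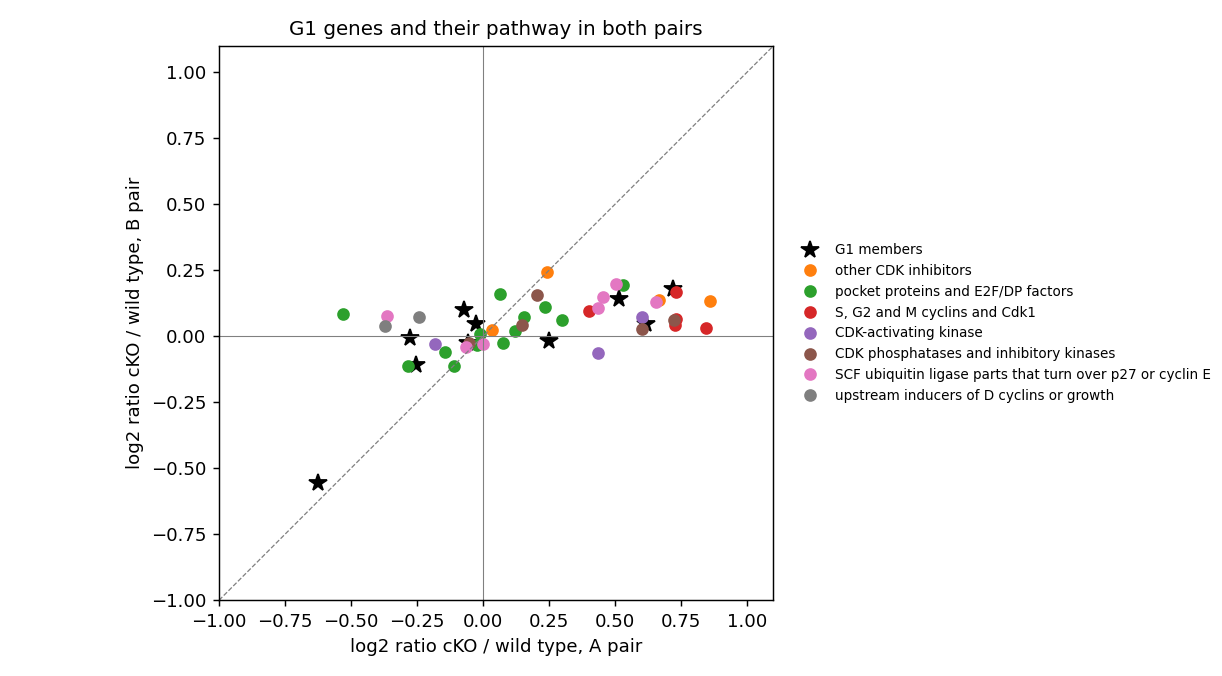
The log2 ratio of cKO over wild type in the A pair (x axis) and in the B pair (y axis) for the 10 G1 genes (stars) and the listed pathway genes (circles), with a dashed line of equal ratios. Of the 50 genes, 44 had a ratio nearer 0 in the B pair than in the A pair. The share over all tested genes was not counted, so this is not shown to be particular to these genes. Across all tested genes cKO-A was the library least like the others (Pearson correlation 0.902 to 0.918). Ccnd2 lies near the line at the lower left, while Cdkn2b, at −4.52 and 0.07, lies outside the axes.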

How the data were processed

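RNA-seq of 4 libraries was used, 2 per group. The values deposited by the authors are normalized read counts: a signal per gene in which, judging by its steps, a library's reads were scaled by a single size factor. FastQC, TopHat, HTSeq and DESeq, with build mm10, stand in the submitters' processing notes. Versions, annotation release and strand use: not given in the sources used here. Whole reads were recovered for 100% of values, to within 0.01 reads. For 17477 genes the authors also deposited a p-value and an adjusted p-value.

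Both cKO columns are headed replicate 2 and were assigned to their group only. Libraries of a group differed beyond sampling noise (chi-square per degree of freedom 113 in cKO and 67.0 in wild type), and whether they came from separate animals is not stated, so p-values measure the spread between these libraries. Genes with a mean of at least 10 (14480) were tested in limma 3.58.1 on log2(normalized count + 1) with a mean-dependent prior; a fold change on this scale understates that of low genes. The fit leaves 2 residual degrees of freedom. Alternatives were pseudocounts of 0.5 and 5, no filter, a mean of at least 50, median rescaling, no mean-dependent prior, edgeR 4.0.16, DESeq2 1.42.0, a replicate block and leaving out each library, and, added after seeing the data, array weights and the block in DESeq2. Scripts were tested on simulated data. Coordinates and lengths were taken from the GENCODE M21 annotation (GRCm38), which held 96.1% of the table's identifiers.

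The members and lists were chosen with earlier results of these data known. Named are all members and, per pathway list, the genes that passed or else the 2 with the highest mean and the 1 with the smallest p. Rb1, Skp2, Fbxw7, Cks2, Cdkn1a and Cdkn2b were named in addition, after their values were seen. R 4.3.3 and Python 3.11.15 were used.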

Additional observations from a re-analysis of the deposited data

How the results depend on the processing

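Limma called 0 genes, as did edgeR, limma with array weights or without the mean-dependent prior, and limma with the other pseudocounts, filters and scaling. The array weights were equal within a group (0.416 in cKO and 2.40 in wild type), so they could not set cKO-A apart from cKO-B. DESeq2 called 1. With 1 library left out limma called 0 to 5768, of which 54 were without cKO-A and 5768 without cKO-B; the cause was not tested. The count of G1 members called was 0 in every alternative except without cKO-B, where it was 1 (range 0 to 1). The shared tags were tried as a replicate block, although their meaning is not labelled. Across genes, the deviations of libraries that share a tag had a correlation of 0.258. With this replicate block limma called 0 genes (1375 at an unadjusted p under 0.05), edgeR 0 (965) and DESeq2 43, 1 higher and 42 lower, and 0 were members. The members' median, 0.01, became 0.10 with median rescaling and ranged from −0.11 to 0.19 over left-out libraries. Of 160 alternative values of the 10 members, 150 kept their direction and their side of the threshold, 9 changed sign and 1 passed. Other filters, array weights, the block and leaving out the prior cannot change the members' log2 fold changes in limma. Most alternatives also called 0 genes, so these counts are no measure of robustness. Median rescaling turned Cdk2 to 0.052, E2f1 to 0.065, Pkmyt1 to 0.054, Cul1 to 0.079 and Myc to 0.0088. Over left-out libraries the log2 fold change ranged from −0.087 to 0.11 for Ccnd3, −0.13 to 0.37 for Ccne1, −0.33 to 0.35 for Ccne2, −0.20 to 0.12 for Cdk2, −0.0018 to 0.67 for Cdkn1c, −0.14 to 0.080 for E2f1, −0.047 to 0.098 for Tfdp2, −0.033 to 0.66 for Cdc25b, −0.16 to 0.083 for Pkmyt1, −0.046 to 0.83 for Cdc25c, −0.17 to 0.14 for Cul1, −0.35 to 0.011 for Mycn and −0.29 to 0.13 for Myc. The Cdkn1a share difference ranged from −0.427 to 1.18 points. Without the length division no share difference changed sign. The depth of cKO-A, 22326119 reads, limits genes as low as Ccnd2.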
